A study of Rattus norvegicus with 25 samples.

Results

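The ncRNA matrix of these sperm libraries held 2 rows annotated as mitochondrial rRNA (Mt_rRNA), out of 3804 rows of which 2086 had distinct counts. Both were kept, and the rule that picks them reads the annotation and no counts. ENSRNOT00000069133.1 (gene ENSRNOG00000043866.1) is called here the major Mt_rRNA and ENSRNOT00000040038.3 (gene ENSRNOG00000030478.3) the minor Mt_rRNA, after their counts. The matrix gives neither gene names nor transcript lengths, so which row is the small and which the large subunit RNA was not assigned. No other row had the same counts as either of them.

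Mitochondria carry their own genome, which encodes a small-subunit and a large-subunit ribosomal RNA, a set of tRNAs and a few proteins of the respiratory chain. The rRNAs form the core of the mitochondrial ribosome, and the tRNAs separate the genes in the long transcripts from which they are cut. In sperm the mitochondria are wrapped around the midpiece of the tail. A small RNA library takes up short RNA molecules, so the reads counted on an rRNA row are fragments of that rRNA and not the whole molecule.

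Sperm came from Sprague-Dawley sires (F0) that had self-administered morphine or saline through an intravenous line, and was collected from the cauda epididymis and purified by double swim-up. The 4 groups compared were all males with this self-administration history. F0_SAL (saline, n = 7) and F0_MOR (morphine, n = 7) were sampled without abstinence, and F0_ABS-SAL (saline, n = 5) and F0_ABS-MOR (morphine, n = 6) after 90 days of abstinence. The comparisons ask whether the Mt_rRNA fragments differed with drug or with collection timepoint. A library is named by the letter of its column. The columns call the groups REG and TO, which were matched to nonabstinent and abstinent by group size. The paper names alternative culture media for releasing the sperm, without saying which library had which. The abstinent males were older at collection, and no source gives the batch or medium of a library. Timepoint, age, batch and medium therefore cannot be told apart.

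Depth ranged from 1540914 to 6489784 counts per library for ncRNAs and from 1032386 to 3203211 for mature miRNAs. Mean ncRNA depth was 3412889 counts in F0_SAL and 2790159 in F0_MOR, against 5286869 in F0_ABS-SAL and 4482648 in F0_ABS-MOR. Depth therefore differed with timepoint. With identical rows reduced to 1 the means were 3118593 and 2472168, against 3702730 and 3301901. A share is given as a percentage of a library's ncRNA counts after rows with identical counts were reduced to 1. The widest 95% Wilson interval of any share below was 0.165 percentage points, which covers counting error only, so the spread between libraries is the error that matters. In bulk RNA, fewer cells of a type and less RNA per cell cannot be told apart.

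Among the rows of the ncRNA matrix, the Mt_rRNA fragments had the most counts. That matrix has no class for nuclear tRNAs or piRNAs, and mature miRNAs were counted apart. The major Mt_rRNA ranked first and the minor Mt_rRNA second in 25 of 25 libraries. Over all libraries together they held 64.1% and 12.3% of the ncRNA counts. Their combined share ran from 54.9% in F0_ABS-SAL library R to 91.1% in F0_SAL library O, and it averaged 84.0% and 77.4% in the saline and morphine groups without abstinence, against 69.6% and 70.4% with it.

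The major Mt_rRNA had a share of 70.5% ± 4.74 (SD, n = 7) in F0_SAL, with a lowest value of 64.1%, a median of 69.4% and a highest value of 76.6%. In F0_MOR it was 65.8% ± 7.54 (SD, n = 7), with 50.2%, 67.3% and 73.7% as lowest, median and highest. Library N was the low one, and the other F0_MOR libraries were at 63.6% or above. In F0_ABS-SAL the 5 libraries had 59.8% (E), 64.3% (K), 67.1% (L), 44.2% (R) and 59.9% (Y), a mean of 59.1% ± 8.87 (SD, n = 5). In F0_ABS-MOR the share was 57.0% ± 6.84 (SD, n = 6), with 44.7%, 58.2% and 64.7% as lowest, median and highest. Libraries R and Q were the lowest of their abstinent groups, and each group overlapped with every other.

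The minor Mt_rRNA had a share of 13.5% ± 3.11 (SD, n = 7) in F0_SAL, with a lowest value of 9.28%, a median of 14.4% and a highest value of 17.9%. In F0_MOR it was 11.7% ± 3.36 (SD, n = 7), with 7.42%, 11.2% and 17.7%. The nonabstinent groups were thus the widest for this row. In F0_ABS-SAL the 5 libraries had 11.5% (E), 9.38% (K), 8.89% (L), 10.7% (R) and 12.2% (Y), a mean of 10.5% ± 1.39 (SD, n = 5). In F0_ABS-MOR it was 13.4% ± 1.84 (SD, n = 6), with 10.2%, 13.7% and 15.8%. Libraries R and Q, which were low for the major row, lay near the middle of their groups for the minor row.

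**Figure D1:**
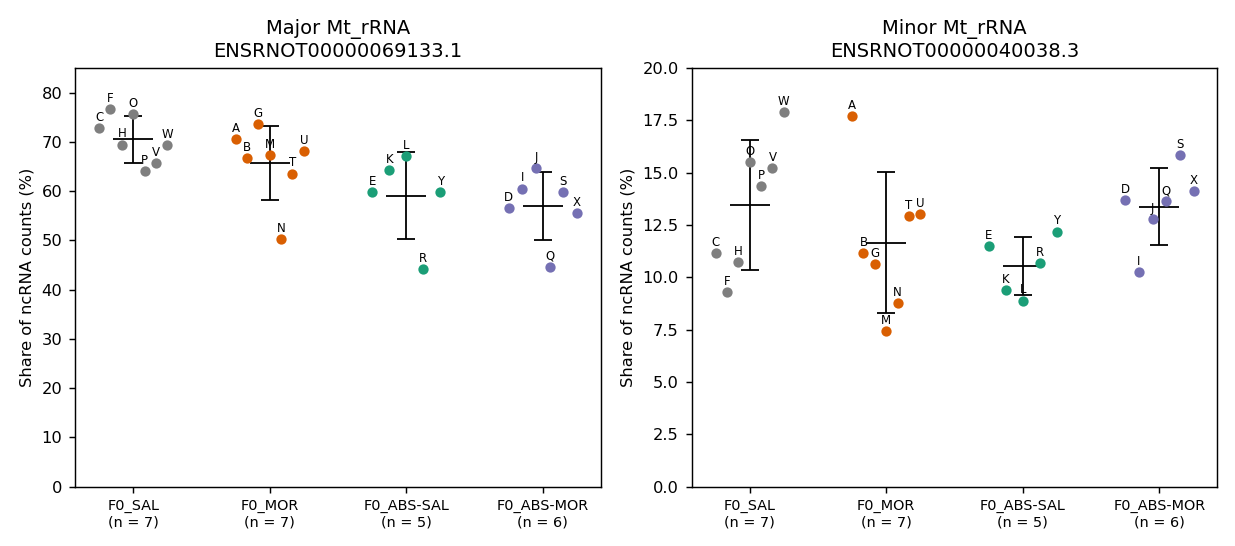
Share of ncRNA counts (%, y axis) of the major (left) and minor (right) Mt_rRNA in each library, by group (x axis); points are libraries with their letters, and bars give the mean and SD. The major row averaged 70.5% in F0_SAL and 59.1% in F0_ABS-SAL with overlapping libraries, and the minor row stayed between 7.42% and 17.9% throughout.

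Between treatments, no share passed an adjusted p of 0.05. These and the other exact tests were two-sided permutation tests of the difference in group means, with Benjamini-Hochberg adjustment over all 20 of them. For the major Mt_rRNA the difference was -4.77 percentage points, lower in F0_MOR than in F0_SAL (exact permutation p = 0.182, adjusted 0.364). With 1 library left out it ran from -6.09 to -2.19 points, the latter without F0_MOR library N (exact p = 0.363). After abstinence it was -2.09 points, lower in F0_ABS-MOR than in F0_ABS-SAL (exact p = 0.632, adjusted 0.744), and 3 of the 6 F0_ABS-MOR libraries lay below the F0_ABS-SAL mean. For the minor Mt_rRNA the difference was -1.79 points, lower in F0_MOR than in F0_SAL (exact p = 0.314, adjusted 0.482), and from -2.80 to -1.05 points with 1 library left out. After abstinence it was 2.86 points, higher in F0_ABS-MOR than in F0_ABS-SAL (exact p = 0.0216, adjusted 0.216). Here 5 of the 6 F0_ABS-MOR libraries lay above all 5 F0_ABS-SAL libraries, and library I lay among them.

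Between timepoints, the mean share of the major Mt_rRNA was lower after abstinence with either treatment, but neither difference passed after adjustment. The difference was -11.5 percentage points in F0_ABS-SAL against F0_SAL (exact permutation p = 0.00758, adjusted 0.152). Every one of the 5 F0_ABS-SAL libraries was under the mean of F0_SAL, and 3 were under its lowest library. It was -8.77 points in F0_ABS-MOR against F0_MOR (exact p = 0.0524, adjusted 0.262), with all 6 F0_ABS-MOR libraries below the F0_MOR mean. Without libraries R and Q the differences were -7.74 and -6.31 points (exact p = 0.0303 and 0.115, both adjusted 0.404). For the minor Mt_rRNA the timepoint differences had opposite signs, -2.94 points in the saline groups (exact p = 0.0833, adjusted 0.272) and 1.72 points in the morphine groups (exact p = 0.286, adjusted 0.476).

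A share depends on what else is counted, and other classes of ncRNA moved with timepoint, of which snRNA was the largest. The snRNA rows, RNAs of the nuclear splicing machinery, held on average 5.13% (saline) and 5.89% (morphine) of ncRNA counts without abstinence, against 20.1% and 18.5% with it. The highest nonabstinent library had 8.39% and the lowest abstinent library 13.6%. The snoRNA rows, a far smaller class, averaged 0.026% (saline) and 0.029% (morphine) without abstinence, against 0.20% and 0.22% with it. With snRNA rows left out of the total, a step chosen after seeing the data, the major Mt_rRNA held 74.3% ± 4.02 (saline) and 69.8% ± 7.13 (morphine) without abstinence, and 73.6% ± 5.29 and 69.8% ± 5.34 with it (SD, n = 7, 7, 5 and 6). Its timepoint differences were then -0.70 percentage points in the saline groups (exact p = 0.806) and -0.031 in the morphine groups (exact p = 0.995). The minor Mt_rRNA was 4.10 points higher in F0_ABS-MOR than in F0_MOR on this scale (exact p = 0.0315, adjusted 0.381).

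Other totals moved the same values in both directions. As a share of miRNA and ncRNA counts together, the timepoint differences of the major Mt_rRNA were smaller, -6.47 points in the saline groups (exact p = 0.140, adjusted 0.376) and -5.15 points in the morphine groups (exact p = 0.145, adjusted 0.376). They were larger on the next totals. With identical rows all counted, the difference for the major Mt_rRNA was -22.5 points in F0_ABS-SAL against F0_SAL (exact p = 0.00126, adjusted 0.0253) and -16.3 points in F0_ABS-MOR against F0_MOR (exact p = 0.00350, adjusted 0.0350). The minor row then differed by -4.90 points in F0_ABS-SAL against F0_SAL and by 2.56 points in F0_ABS-MOR against F0_ABS-SAL (exact p = 0.00758 and 0.00866, both adjusted 0.0433). The first snRNA set was 11 rows with identical counts (ENSRNOT00000077425.1 among them, 1683455 counts). A further 8 rows with totals from 808382 to 921124 counts correlated at r of 0.997 or more with ENSRNOT00000084201.1, the highest of them, without being identical. The snRNA total may therefore count reads several times even after the reduction. With the rows annotated as rRNA, which are encoded in the nucleus, left out of the total, the differences for the major Mt_rRNA were -12.4 points in the saline and -12.0 points in the morphine groups (exact p = 0.00126 and 0.00175, both adjusted 0.0175). F0_MOR library N, the lowest of its group for the major row, had 22.7% of its counts on these rRNA rows. The F0_MOR median was 7.10% and its mean, with N included, 8.82%, against a mean of 5.16% in F0_SAL.

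**Figure D2:**
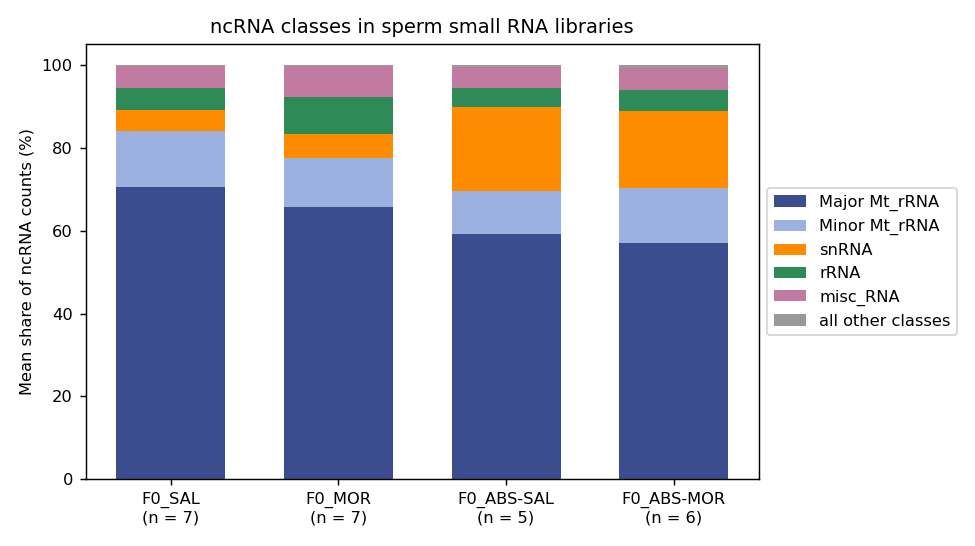
Mean share of ncRNA counts (%, y axis) of the Mt_rRNA rows and of the largest other classes in each group (x axis), stacked to the whole. The snRNA band was 5.13% and 5.89% in the nonabstinent groups and 20.1% and 18.5% in the abstinent groups, where the Mt_rRNA bands together were lower.

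The ratio of the major to the minor Mt_rRNA needs no total and no normalization between libraries. It is a ratio of counts and not of molecules, since it was not corrected for transcript length. It averaged 5.54 ± 1.59 (SD, n = 7) in F0_SAL, ranging from 3.87 (W) over a median of 4.88 to 8.25 (F). In F0_MOR it was 5.98 ± 1.64 (SD, n = 7), from 3.99 (A) over 5.72 to 9.07 (M). In F0_ABS-SAL the libraries had 5.20 (E), 6.86 (K), 7.55 (L), 4.14 (R) and 4.91 (Y), a mean of 5.73 ± 1.42 (SD, n = 5). In F0_ABS-MOR the ratio was 4.35 ± 0.963 (SD, n = 6), from 3.28 (Q) over 4.03 to 5.91 (I).

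The ratio thus differed more between libraries of a group than between group means, with F0_ABS-MOR at the low end. The mean log2 ratio differed by -0.44 in F0_ABS-MOR against F0_MOR (exact permutation p = 0.0425, adjusted 0.262), and 3 of the 6 F0_ABS-MOR libraries lay below every F0_MOR library. It differed by -0.39 in F0_ABS-MOR against F0_ABS-SAL (exact p = 0.0801, adjusted 0.272). In the other comparisons the difference was 0.11 in F0_MOR against F0_SAL (exact p = 0.584, adjusted 0.730) and 0.063 in F0_ABS-SAL against F0_SAL (exact p = 0.768, adjusted 0.801). The SD of the log2 ratio within groups was 0.36.

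**Figure D3:**
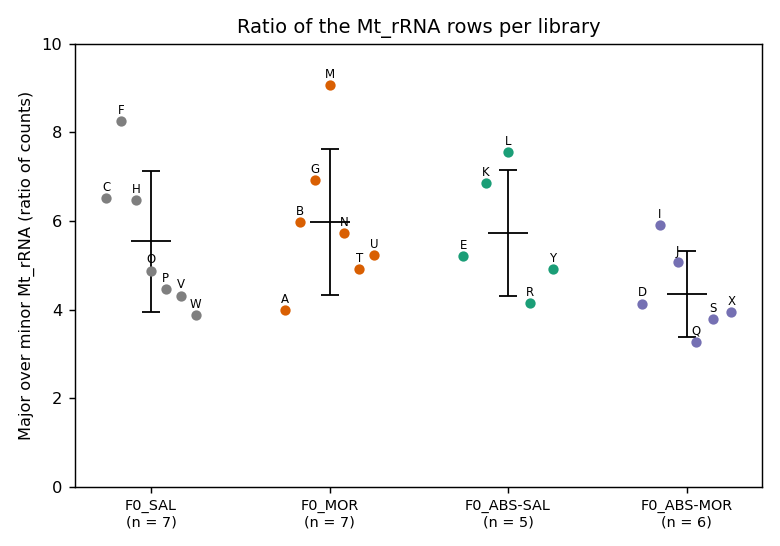
Ratio of major to minor Mt_rRNA counts (y axis, starting at 0) in each library, by group (x axis); points are libraries with their letters, and bars give the mean and SD. Libraries spread from 3.28 to 9.07, and 4 of the 6 F0_ABS-MOR libraries lay below all F0_ABS-SAL libraries.

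Set against the miRNAs of the same library, the major Mt_rRNA gave about as many counts as all mature miRNAs together. As a percentage of the summed miRNA counts it was 115% ± 34.6 (SD, n = 7) for F0_SAL libraries and 107% ± 30.2 (SD, n = 7) for those of F0_MOR. After abstinence it was 99.1% ± 29.9 (SD, n = 5) in F0_ABS-SAL and 92.9% ± 18.8 (SD, n = 6) in F0_ABS-MOR. The extremes were 57.0% in F0_ABS-SAL library R and 163% in F0_MOR library G. The minor Mt_rRNA gave 21.0% ± 4.27, 18.5% ± 5.39, 17.5% ± 4.96 and 21.6% ± 3.24 of the miRNA counts in the same order (SD, n = 7, 7, 5 and 6), from 13.8% in library R to 30.0% in F0_SAL library O.

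Relative to miRNAs, none of the 8 differences passed, and all groups overlapped. For the major Mt_rRNA the mean log2 ratio to miRNA counts differed by -0.22 in F0_ABS-SAL against F0_SAL (exact permutation p = 0.448, adjusted 0.598) and by -0.19 in F0_ABS-MOR against F0_MOR (exact p = 0.367, adjusted 0.524). With 1 library left out the first ran from -0.35 to -0.035, the latter without library R (exact p = 0.885), and the second from -0.25 to -0.077, the latter without library Q. Between treatments it differed by -0.090 without abstinence (exact p = 0.690) and by -0.061 with it (exact p = 0.801). For the minor Mt_rRNA the largest difference was 0.33 higher in F0_ABS-MOR than in F0_ABS-SAL (exact p = 0.0952, adjusted 0.272). All 6 F0_ABS-MOR libraries lay above the F0_ABS-SAL mean, and 4 of the 5 F0_ABS-SAL libraries lay below every F0_ABS-MOR library. Its other differences were -0.20 (F0_MOR against F0_SAL), -0.28 (F0_ABS-SAL against F0_SAL) and 0.25 (F0_ABS-MOR against F0_MOR), with adjusted p of 0.476, 0.364 and 0.364 from the exact tests.

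Across the 25 libraries the share of either row was not detectably related to the summed miRNA counts. With group means removed, the log2 share of the major Mt_rRNA against the log2 miRNA total gave r = 0.14 (permutation p = 0.492, adjusted 0.492) and rho = 0.29 (permutation p = 0.168, adjusted 0.307). The minor Mt_rRNA gave r = 0.28 (permutation p = 0.230, adjusted 0.307) and rho = 0.33 (permutation p = 0.154, adjusted 0.307). Without the 2 libraries farthest from the median miRNA total, T of F0_MOR and O of F0_SAL, r was 0.072 for the major and 0.29 for the minor row. Without F0_MOR library N alone r was higher, 0.37 for the major (permutation p = 0.0663) and 0.40 for the minor row (permutation p = 0.0762), both at an adjusted p of 0.0762. Within timepoints the signs were mixed. The 14 nonabstinent libraries gave r = -0.18 for the major and 0.41 for the minor row, and the 11 abstinent libraries gave 0.55 and -0.19. Among the abstinent libraries the major row had a rho of 0.68 (permutation p = 0.0290, adjusted 0.116). Counts of the rows and of the miRNAs rose together (r = 0.67 and 0.81, permutation p = 6.50e-04 and 1.00e-05, the latter the smallest that the permutations can give), and both carry the depth of the library.

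**Figure D4:**
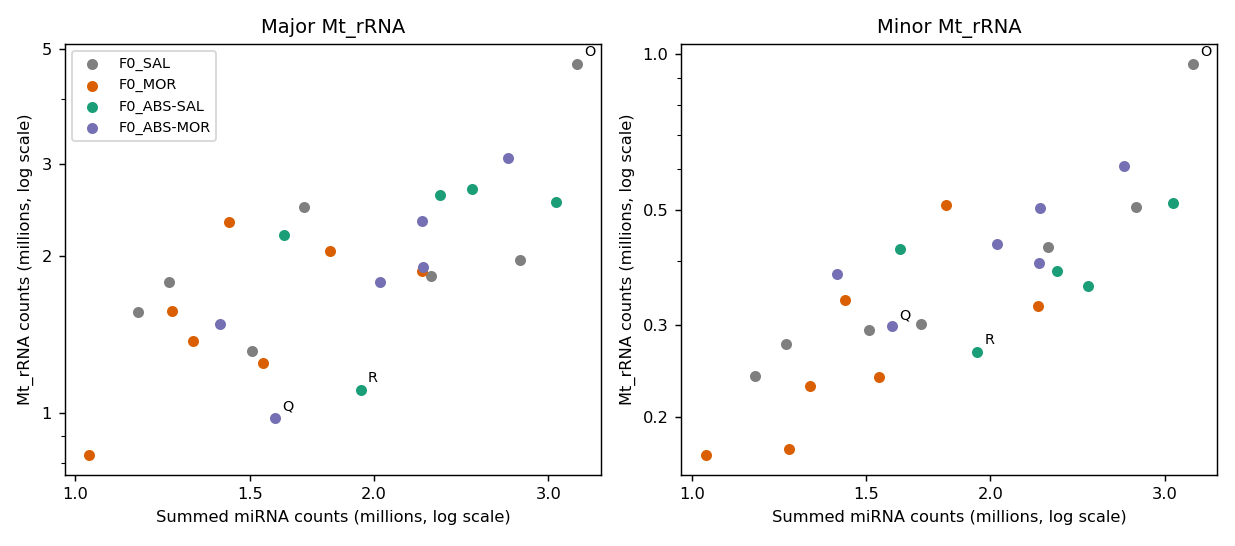
Counts of the major (left) and minor (right) Mt_rRNA (log y axis, in units of 1000000 counts) against the summed miRNA counts of the same library (log x axis, same units); each point is a library coloured by group, with libraries O, Q and R named. Counts rose with the miRNA total in both panels (r = 0.67 and 0.81 with group means removed), and R and Q lay low for the major row.

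Normalized over all ncRNAs, neither row was called in any comparison by edgeR's quasi-likelihood test after TMM scaling. A call needed a Benjamini-Hochberg adjusted p under 0.1 over the 482 rows tested and a log2 fold change beyond 0.58. Rows with identical counts were each kept in this fit. Between F0_MOR and F0_SAL, 0 of 2 rows were called against 0% of all rows (25 had an unadjusted p under 0.05, and DESeq2 called 1 row). The log2 fold changes were -0.54 (standard error 0.25, unadjusted p = 0.0385) for the major and -0.58 (standard error 0.28, unadjusted p = 0.0484) for the minor row, both at an edgeR adjusted p of 0.671. These sizes depended on the scaling and on single libraries. With the total count they were -0.14 and -0.23 (edgeR adjusted p = 0.646 and 0.589), where the median row stood at 0.33 against -0.071 with TMM, and with log2 depth as a covariate they were -0.23 and -0.32. With no filter on low counts the adjusted p passed (edgeR, 9.08e-08 and 3.22e-04), at log2 fold changes of -0.45 and -0.53 that did not reach the size a call needed. With 1 library of these groups left out the values ran from -0.86 to -0.40 for the major and from -0.87 to -0.46 for the minor row. Between F0_ABS-MOR and F0_ABS-SAL, 0 of 2 rows were called against 0% of all rows (1 with an unadjusted p under 0.05, and 0 called by DESeq2). The log2 fold changes were -0.11 (standard error 0.28) for the major and 0.28 (standard error 0.32) for the minor row, both at an edgeR adjusted p of 0.992. With 1 library of these groups left out the major row ran from -0.40 (without J) to -0.051 (without X) and the minor row from 0.025 (without J) to 0.37 (without Y).

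Between timepoints many ncRNAs were called, and the call of the Mt_rRNA rows turned on the scaling. In F0_ABS-SAL against F0_SAL, 0 of 2 rows were called beside 36.5% of all rows (112 of 409 with identical rows reduced to 1). The log2 fold change was -0.48 (standard error 0.28, edgeR adjusted p = 0.200) for the major and -0.59 (standard error 0.31, edgeR adjusted p = 0.161) for the minor row. With DESeq2 both were called lower, at -0.78 (DESeq2 adjusted p = 0.0699) and -0.89 (DESeq2 adjusted p = 0.0414). Of 13 other settings, 1 was only a stricter adjusted p of 0.05 on the same fit, which could add no call. Among the 13 the major row was called in 5 and the minor row in 6, always as lower. Both were also called without F0_SAL library H (-0.88 and -0.99) or W (-0.92 and -0.91). With snRNA rows removed before the fit they stayed lower but were not called, at -0.57 for the major and -0.71 for the minor row. Relative to the median row of that fit they were at -0.64 and -0.77. TMM itself placed the median of the 482 rows at 0.32 in this comparison, while DESeq2 size factors placed it at 0.061. Relative to that median the rows were at -0.80 and -0.91 with TMM and at -0.84 and -0.95 with DESeq2 size factors. Over 4 scalings (these, the total count, and TMM on both matrices joined) the relative values ran from -0.84 to -0.75 for the major and from -0.95 to -0.87 for the minor row. A scaling shifts all rows of a library nearly alike, so taking the median off removes most of it. The narrow range is therefore no test of the scaling.

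In F0_ABS-MOR against F0_MOR, 0 of 2 rows were called beside 35.7% of all rows (143 of 409 with identical rows reduced to 1). The log2 fold change was -0.058 (standard error 0.26, edgeR adjusted p = 0.930) for the major and 0.27 (standard error 0.29, edgeR adjusted p = 0.521) for the minor row, with the median row at 0.30. With 1 library of these groups left out the major row ran from -0.50 to -0.027. Relative to the median row the major Mt_rRNA ran from -0.36 to -0.30 and the minor Mt_rRNA from -0.033 to 0.10 over the same scalings, so the sign of the minor row depended on the scaling. The interaction, the morphine difference without abstinence minus that with it, was -0.42 (standard error 0.38, edgeR adjusted p = 0.987) for the major and -0.86 (standard error 0.43, edgeR adjusted p = 0.911) for the minor row. Of all rows 0% were called for the interaction, with 23 at an unadjusted p under 0.05 and 0 called by DESeq2. The treatment comparisons share their groups with the timepoint comparisons, so their values are not independent of one another.

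**Figure D5:**
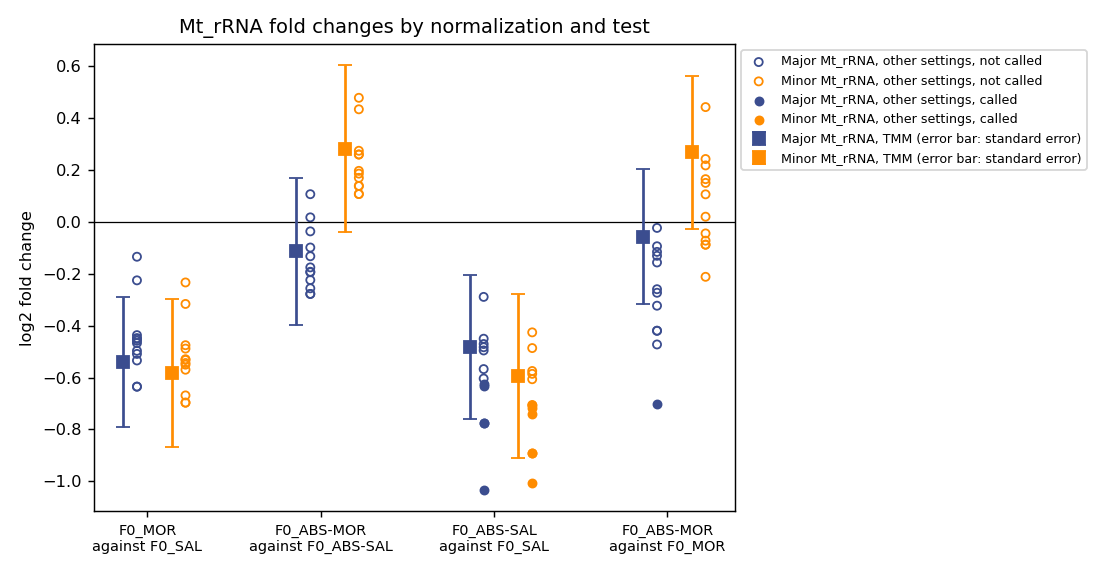
Log2 fold change (y axis) of both Mt_rRNA rows in the 4 pairwise comparisons (x axis); squares are edgeR after TMM with the standard error as bar, and circles are other settings, filled where the row was called. In F0_ABS-SAL against F0_SAL the TMM values of -0.48 and -0.59 were not called and several other settings were called lower.

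The rows varied together from library to library. Their log2 TMM-scaled CPM (counts relative to library size) correlated at r = 0.81 over 25 libraries, and at r = 0.81 with group means removed. This is a description, since both rows share library, depth and scaling. Of the 406 other distinct rows past the filter, each Mt_rRNA had the other as its nearest row. After it the minor Mt_rRNA was most like ENSRNOT00000081777.1 (lincRNA, r = 0.77), ENSRNOT00000079888.1 (misc_RNA, r = 0.75), ENSRNOT00000087128.1 (lincRNA, r = 0.72) and ENSRNOT00000085773.1 (misc_RNA, r = 0.72). The major Mt_rRNA was most like ENSRNOT00000085773.1 (r = 0.74), ENSRNOT00000078962.1 (miRNA, r = 0.71), ENSRNOT00000083901.1 (misc_RNA, r = 0.70) and ENSRNOT00000087128.1 (r = 0.69). Median counts were only 13 for ENSRNOT00000078962.1 and 19 for ENSRNOT00000087128.1, against 1872672 for the major row. All these rows were picked as the highest of 406. The SD of log2 CPM within groups was 0.57 for the major and 0.61 for the minor row, where the median of the 480 other rows tested was 0.76. Of those rows, 22.3% and 28.3% varied less. The comparison was not matched for abundance. Only 197 rows of the matrix had at least 10 counts in every library, and rows with few counts carry more counting error.

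The mitochondrial tRNAs, which carry amino acids to the mitochondrial ribosome, were nearly absent from this matrix beside the rRNAs. Whether tRNA reads were assigned outside the matrix is not known. Their 17 rows (Mt_tRNA) summed to 345 counts over 25 libraries, and 0 of them passed the filter on low counts. In 11 rows at least 3 libraries had counts. The summed Mt_tRNA count ran from 0 to 11 in the 14 nonabstinent libraries and from 4 to 66 in the 11 abstinent libraries. F0_ABS-MOR libraries I (66) and J (47) were the highest, and library S (4) was the lowest abstinent one. The most abundant row, ENSRNOT00000048050.3, had 89 counts in 13 libraries, 10 of them abstinent. ENSRNOT00000049806.3 had 54 counts in 14 libraries, 9 of them abstinent, and ENSRNOT00000051860.3 had 46 counts in 14 libraries, 6 of them abstinent. Per 1000000 Mt_rRNA counts, the Mt_tRNAs had 2.29 ± 1.13 counts (SD, n = 7) with saline and 1.94 ± 1.41 (SD, n = 7) with morphine before abstinence, and 8.54 ± 3.08 (SD, n = 5) and 12.4 ± 7.59 (SD, n = 6) after it. These counts are too few for a test of single rows, and the matrix has no count of 1, so the lowest values are cut off at 2. This floor was the same for all libraries, while mean ncRNA depth was higher in the abstinent groups.

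The libraries carried the miRNAs listed for germ cells, and the muscle, epithelial and leukocyte lists had higher median sums in the abstinent groups. How many other miRNAs or lists differed as much between timepoints was not counted. All 10 of 10 germ cell miRNAs were counted in every library, and their summed level had group medians of 490251 CPM (387548 to 575514, F0_SAL), 449129 (353591 to 468278, F0_MOR), 395557 (284280 to 449105, F0_ABS-SAL) and 402074 (231665 to 466814, F0_ABS-MOR). The 4 muscle miRNAs, of which 2 had counts in every library, ran from 10659 to 15997 CPM in F0_SAL and from 12599 to 16317 in F0_MOR. In F0_ABS-SAL they ran from 19658 to 83759 CPM and in F0_ABS-MOR from 18073 to 45750. The highest muscle sums were in R and Q, which also had the lowest germ cell sums and the lowest major Mt_rRNA shares of their groups. The other lists did not all follow R and Q. In F0_ABS-SAL and F0_ABS-MOR the highest epithelial sums were in R and X, and the highest leukocyte sums in E and D. The 7 epithelial miRNAs ran from 5690 to 11923 CPM in the nonabstinent and from 8891 to 21185 in the abstinent groups. The 6 leukocyte miRNAs had group medians of 1328, 1930, 2351 and 2698 CPM in the same order of groups. The erythroid list was counted for 3 of its 4 miRNAs, with medians of 986, 1477, 1141 and 880 CPM, higher after abstinence with saline and lower with morphine, and no listed miRNA in the table was at 0 in all libraries. Which cells these miRNAs came from, and the part of such cells in the Mt_rRNA values, was not tested. Without R and Q, edgeR gave log2 fold changes of -0.48 for the major and -0.61 for the minor row in F0_ABS-SAL against F0_SAL (adjusted p = 0.259 and 0.225).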

How the data were processed

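The authors made small RNA libraries with the NEBNext kit, used the forward reads, aligned them with sRNAbench to the rat genome (rn6) and assigned them to miRBase, then the remainder to Ensembl ncRNAs in sense. The sRNAbench settings also list RNAcentral and cDNA libraries, and whether reads went to these in place of the ncRNA matrix is not given. How reads shared between rows, or with nuclear copies of mitochondrial DNA, were divided is not given in the sources used here. They deposited raw read counts per miRNA and per ncRNA row, 1 column per library, with no normalization. Columns could be matched to groups only, not to a replicate. The labels call the samples biological replicates.

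Shares, ratios and miRNA totals were computed with Python 3.11.15. Counts were tested with edgeR 4.0.16 (TMM, edgeR's filter on low counts, 1 model with 4 groups, prior count of 2 for log2 CPM) in R 4.3.3, with DESeq2 1.42.0 and limma 3.58.1 as alternatives. The standard error is the log2 fold change over the square root of F. The tests were tried on simulated data. Correlations used 100000 permutations within groups. Members and lists were chosen with earlier results of these data known. The text names both Mt_rRNA rows, the Mt_tRNA rows, the classes and the rows nearest by correlation. Sequences of these rows were not used here.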

Additional observations from a re-analysis of the deposited data

Results flagged for a closer look

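In 28 groups of 5 to 7 libraries, the highest and lowest library were checked against the rest, and in 3 groups a library stood apart by more than Dixon's limit, where chance flags about 1 in 20 groups, or 1.4 here. F0_SAL library O had a log2 ratio of the minor Mt_rRNA to miRNA counts of -1.74, with the next library at -2.17. The same library had the highest log2 total ncRNA count of its group, 22.56 against 21.63. F0_ABS-SAL library R had the lowest log2 total ncRNA count of its group, 21.26 against 21.81.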

How the results depend on the processing

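No paired analysis was possible because the columns carry no replicate number, and no replicate block was fitted. Alternatives with snRNA rows removed, with another ncRNA total in place of miRNA counts, and without libraries R and Q were chosen after seeing the data. Of 228 other settings of the results, 194 kept direction and side of the threshold, 21 passed where the main value did not and 13 changed direction. The causes were not tested.

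In F0_ABS-SAL against F0_SAL, the edgeR log2 fold change of the minor and the major row passed with DESeq2 (-0.89, -0.78), its size factors in edgeR (-0.89, -0.78), the total count (-0.74, -0.62), 1 TMM factor from both matrices (-0.72, -0.63) and log2 depth as a covariate (-1.01, -1.03), and the minor row with only the 2 groups fitted (-0.71). Depth as a covariate also passed the major row in F0_ABS-MOR against F0_MOR (-0.70), and no filter on low counts passed the minor row in the interaction (-0.67). The minor row turned negative in F0_ABS-MOR against F0_MOR with DESeq2 and its size factors (-0.089 each), total count (-0.073), depth as a covariate (-0.21) and snRNA rows removed (-0.045). The major row turned positive in F0_ABS-MOR against F0_ABS-SAL with total count (0.017) and depth as a covariate (0.11).

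With identical rows all counted, the minor share passed in F0_ABS-MOR against F0_ABS-SAL (2.56 points) and F0_ABS-SAL against F0_SAL (-4.90) and turned in F0_ABS-MOR against F0_MOR (-0.51), and the major share passed in both timepoint comparisons (-22.5, -16.3) and turned in F0_ABS-MOR against F0_ABS-SAL (0.48). Without rRNA rows the major share passed in both timepoint comparisons (-12.4, -12.0). Against ncRNA counts other than Mt_rRNA and snRNA, the log2 ratio of the major row in F0_ABS-MOR against F0_MOR turned to 0.30. The correlations passed on raw counts (0.81, 0.67). They turned to -0.19 for the minor row in abstinent libraries, and for the major row to -0.063 with group means kept and -0.18 in nonabstinent libraries.

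With 1 library of the compared groups left out in turn, 437 of 450 values kept direction and side of the threshold. In F0_ABS-SAL against F0_SAL the edgeR value ran from -0.99 to -0.49 for the minor and from -0.92 to -0.30 for the major row. Both were called without H (-0.99, -0.88) or W (-0.91, -0.92) of F0_SAL. TMM took library I as its reference, and library S once H or W was left out, or G, M or U of F0_MOR, a group outside this comparison. Without those 3 both rows were called as well (-0.94 and -0.87 each time), and without A the minor row (-0.71). Relative to the median row the values without 1 library ran from -1.10 to -0.73 and from -0.99 to -0.63. In F0_ABS-MOR against F0_MOR the minor row ran from -0.17 to 0.29 and was negative without M, N or U of F0_MOR. The log2 ratio of the rows in F0_ABS-SAL against F0_SAL ran from -0.045 to 0.17, negative without W, K or L. In F0_ABS-MOR against F0_ABS-SAL the major row's log2 ratio to miRNA ran from -0.24 to 0.067, positive without E or Q, and its share from -5.80 to 0.38 points, positive without Q.

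Over all rows, edgeR's 176 and 172 timepoint calls (141 and 139 higher) became 144 and 182 with the total count (89 and 98 higher), 190 and 202 with DESeq2 size factors (120 and 108 higher) and 178 and 193 with TMM on both matrices (126 and 121 higher). They were 96 and 92 with at least 10 counts in every library, 112 and 143 with identical rows reduced, 110 and 161 without snRNA rows and 111 and 184 without R and Q. Between F0_MOR and F0_SAL, 0 calls became 19 of 319 rows with only the 2 groups fitted, 2 with no filter and 1 with DESeq2, with its size factors, or without T, U, F or H.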
